A study of Homo sapiens with 7 samples.

Results

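The Notch pathway was followed through 10 genes in HK-2 cells, a cultured line immortalised from the proximal tubule of a human kidney: the receptors NOTCH1, NOTCH2 and NOTCH3, the ligands JAG1, JAG2 and DLL1, the nuclear proteins RBPJ and MAML1, and the targets HES1 and HEY1. They were chosen by name from the gene symbols of the deposited table, in which all 10 are among 33694 rows. The siGLUT2 group was transfected with an siRNA against GLUT2, which SLC2A2 encodes and which lets glucose pass the membrane of tubule and liver cells (3 libraries, replicates 2 to 4). The scrambled group consisted of wild-type HK-2 cells transfected with an siRNA of scrambled sequence (4 libraries, replicates 1 to 4). Both groups received 50 nM siRNA with the same transfection reagent and were lysed 96 h later, and all libraries came from 1 cell line, so the replicates, which the labels call biological, stand for cultures and not donors. The labels do not name the siRNA sequence or say whether more than 1 siRNA was used.

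Notch receptors are cell-surface proteins that are cut when a ligand on a neighbouring cell, of the Jagged or Delta-like families, pulls on them. ADAM proteases and the gamma-secretase complex make the cuts, and the released intracellular domain enters the nucleus, where it joins the DNA-binding protein RBPJ and a Mastermind coactivator such as MAML1 and switches on genes of the HES and HEY families. Without that domain RBPJ binds corepressors. In the kidney the pathway is known for its part in forming the proximal nephron and for its reactivation in injured tubules.

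Of the 10 genes, 9 passed the filter on low counts and were tested, and 3 of the 9 were lower after siGLUT2: the ligand JAG1, the DNA-binding factor RBPJ and the target HES1. None was called higher, and none had an unadjusted p below 0.05 in that direction. JAG1 was at 133 ± 26.7 CPM in siGLUT2 and 254 ± 16.7 CPM in scrambled libraries, RBPJ at 156 ± 29.2 CPM in siGLUT2 and 232 ± 23.4 CPM in scrambled, and HES1 at 93.0 ± 7.19 CPM in siGLUT2 and 116 ± 6.23 CPM in scrambled libraries (SD, n = 3 siGLUT2 and n = 4 scrambled libraries, here and below). Over all 12404 genes tested, 28.3% were called in either direction, 13.9% higher and 14.4% lower, so the share of Notch genes called, 33.3%, was near that background. The log2 fold changes of the 9 genes lay between -0.93 and 0.32 with a median of 0.01, against a median of -0.00286 over all genes tested. CPM are counts divided by library size, with library sizes adjusted by the TMM method. Fold changes are given as the log2 of siGLUT2 over scrambled with the standard error of the fit. Adjusted p-values are those of the quasi-likelihood test of edgeR, adjusted by the Benjamini-Hochberg method across every gene tested, with a threshold of 0.05.

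**Figure D1:**
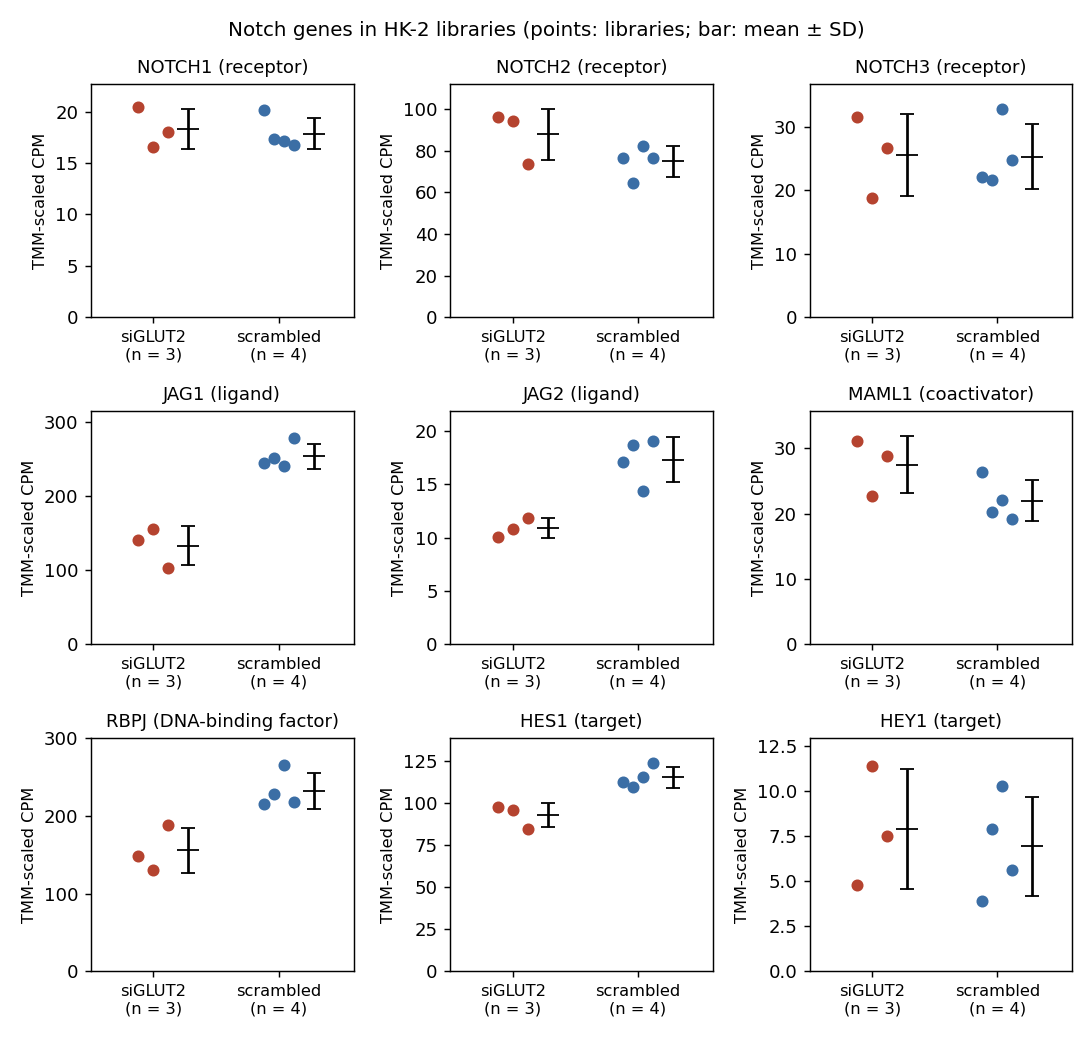
TMM-scaled CPM (vertical axes, linear, starting at 0) of the 9 tested Notch genes, with siGLUT2 left of scrambled; points are libraries and bars are mean ± SD. In the JAG1, JAG2, RBPJ and HES1 panels all 3 siGLUT2 points lie below all 4 scrambled points, and in the other 5 panels the groups overlap. Over all genes tested the groups were apart, in either direction, for 35.1%.

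Total counts were 5881366 to 6914302 in siGLUT2 and 5654957 to 8455963 in scrambled libraries. The siRNA's target SLC2A2 was counted 0 times in each siGLUT2 library and 13, 13, 7 and 17 times in the scrambled libraries (adjusted p = 0.0085 by edgeR). Fewer genes were detected in siGLUT2 libraries (13433 to 13891, against 14844 to 15036 in scrambled), and mitochondrially encoded genes took a larger share of counts (7.04% to 7.56%, against 4.91% to 5.53%). The part of these library differences in the Notch results was not tested. Of 12 proximal tubule markers, 4 averaged at least 1 CPM, and LRP2, SLC22A6 and SLC22A8 had no count in any library, so the labelled cell type rests on few segment-defining transcripts. All 10 epithelial and tubule line markers averaged at least 1 CPM over the 7 libraries, though CDH1 was at 0 in siGLUT2 library 3. Of the 10, 4 were called lower and 1 higher. Their summed level, of which VIM held the largest part, was 2610 to 2770 CPM in siGLUT2 and 2790 to 3100 CPM in scrambled libraries. The keratins averaged less in siGLUT2 libraries, KRT7 at 19.4 CPM against 87.6 CPM in scrambled, KRT8 at 272 against 446 CPM in scrambled, KRT18 at 248 against 421 CPM in scrambled and KRT19 at 60.5 against 118 CPM in scrambled libraries. PAX8 averaged 176 CPM in siGLUT2 and 192 CPM in scrambled libraries. VIM and CDH2 averaged more in siGLUT2 libraries, at 1410 and 319 CPM, against 1230 and 288 CPM in scrambled libraries. EPCAM averaged 99.4 CPM in siGLUT2 and 98.6 CPM in scrambled, CD24 78.1 against 83.1 CPM in scrambled and CDH1 0.815 against 3.15 CPM in scrambled libraries. The part of these marker differences, and of those that follow, in the Notch results was not tested. Of 9 fibroblast and pericyte markers 2 were called higher, and their summed level was 47.1 to 52.0 CPM in siGLUT2 and 17.7 to 24.0 CPM in scrambled libraries, of which LUM held a mean of 23.9 CPM in siGLUT2 and 1.86 CPM in scrambled libraries, while COL3A1 had no count. Of 8 leukocyte markers 1 was called higher. Their sum was 26.8 to 29 CPM in siGLUT2 and 14.2 to 19.4 CPM in scrambled libraries. Of that sum CD68 held a mean of 25.9 CPM in siGLUT2 and 15 CPM in scrambled libraries, and PTPRC, CD3E and LYZ were at 0 in every library. Of 8 endothelial markers 6 were at 0 in every library, PECAM1, CDH5, KDR, VWF, TEK and CLDN5. In a culture, less RNA per cell and fewer cells holding a transcript cannot be told apart.

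None of the 3 receptors passed the threshold by edgeR or under any of the 16 alternative settings, and none had an unadjusted p below 0.05. NOTCH1 (ENSG00000148400, GRCh38 chromosome 9, 136494433 to 136545786, minus strand) was at 20.5, 16.6 and 18.0 CPM in siGLUT2 libraries 2 to 4, and at 20.2, 17.4, 17.2 and 16.8 CPM in scrambled libraries 1 to 4. The groups overlapped over their whole range, and the log2 fold change was 0.03 ± 0.22, with a 95% interval of -0.43 to 0.50. NOTCH3 (ENSG00000074181, chromosome 19, 15159038 to 15200981, minus strand) was at 31.6, 18.7 and 26.6 CPM in siGLUT2 and at 22.1, 21.6, 32.8 and 24.7 CPM in scrambled libraries, a log2 fold change of 0.01 ± 0.22 with an interval of -0.44 to 0.47 (adjusted p = 0.97 by edgeR). Both intervals reach well to either side of 0, so they do not show that these receptors stayed level. NOTCH2 (ENSG00000134250, chromosome 1, 119911553 to 120069626, minus strand) was at 96.0, 94.1 and 73.8 CPM in siGLUT2 and at 76.5, 64.6, 82.3 and 76.5 CPM in scrambled libraries. Libraries 2 and 3 of siGLUT2 stood above every scrambled library, and library 4 stood within the scrambled range. The log2 fold change was 0.23 ± 0.13 (interval -0.04 to 0.50, edgeR adjusted p = 0.204). Over the alternatives the edgeR adjusted p ran from 0.0525 without siGLUT2 replicate 4 to 0.439 without scrambled replicate 2. NOTCH2 has near-identical partial copies in the genome. The copy NOTCH2NLA held 2 counts over all libraries, and since reads that match both may have been split or left uncounted, the NOTCH2 level is uncertain. The remaining receptor, NOTCH4, was counted too rarely to be tested.

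The ligands differed more. JAG1 (Jagged 1; ENSG00000101384, chromosome 20, 10637684 to 10673999, minus strand) was counted 823, 1080 and 663 times in siGLUT2 and 1743, 2101, 1908 and 1576 times in scrambled libraries. Scaled for depth this was 140, 156 and 104 CPM in siGLUT2 and 244, 252, 241 and 278 CPM in scrambled libraries. Every siGLUT2 library was below every scrambled library. The groups were likewise apart, in either direction, for 35.1% of all genes tested. JAG1 fell by 0.93 ± 0.12 on the log2 scale (adjusted p = 2.75e-06 by edgeR), and 8.14% of the genes tested had a lower fold change. The siGLUT2 libraries spread more than the scrambled ones, with library 4 lowest, and without that library the log2 fold change was -0.78. An antisense transcript that overlaps JAG1, ENSG00000270792, held 14 counts in all libraries together, against 9894 for JAG1.

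JAG2 (Jagged 2; ENSG00000184916, chromosome 14, 105140981 to 105168824, minus strand) had 10.1, 10.8 and 11.9 CPM in siGLUT2 and 17.1, 18.7, 14.4 and 19.0 CPM in scrambled libraries. The groups did not overlap here either, but with 59 to 76 counts per siGLUT2 library the log2 fold change of -0.66 ± 0.25 missed the threshold (edgeR adjusted p = 0.0535). The adjusted p was 0.0494 with a stricter filter on low counts and reached 0.135 without scrambled replicate 4. DLL1 (Delta-like 1; ENSG00000198719, chromosome 6, 170282206 to 170306565, minus strand) had a count of 0 in every library. It overlaps FAM120B, which held 439 counts over all libraries, on the other strand. With an unknown strand setting, DLL1 reads from shared sequence may have been left uncounted or counted for FAM120B. If reads were independent, 3 counts over a group, the limit that a count of 0 allows, would be 0.156 CPM in siGLUT2 and 0.103 CPM in scrambled libraries. Among the other ligands DLL4 also had no count, and DLL3, an unusual Delta-like protein that acts inside the cell, was at 22.3 ± 7.68 CPM in siGLUT2 and 20.7 ± 2.56 CPM in scrambled libraries (log2 fold change 0.12 ± 0.24, edgeR adjusted p = 0.764). DLK2, a non-canonical ligand, was at 8.28 ± 2.72 CPM in siGLUT2 and 5.05 ± 1.43 CPM in scrambled libraries (edgeR adjusted p = 0.187) and was the 1 tested gene of 6 on that list.

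**Figure D2:**
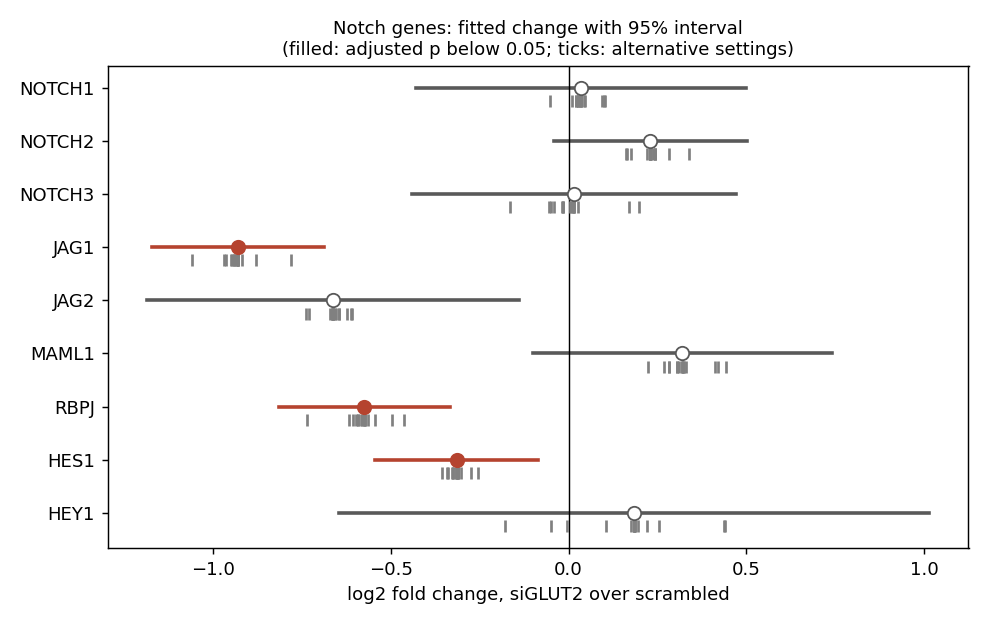
Log2 fold change of siGLUT2 over scrambled (horizontal axis) for the 9 tested Notch genes, with 95% intervals as lines, filled circles for an adjusted p below 0.05, and grey ticks for the 16 alternative settings of processing. JAG1, RBPJ and HES1 lie left of 0 under each setting run, while the ticks of NOTCH1, NOTCH3 and HEY1 fall on both sides of 0.

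RBPJ is the DNA-binding core of the pathway and is needed both for switching targets on and for holding them off. RBPJ (ENSG00000168214, chromosome 4, 26163455 to 26435131, plus strand) was at 149, 131 and 188 CPM in siGLUT2 and at 215, 228, 266 and 218 CPM in scrambled libraries. The highest siGLUT2 library, 4, was still below the lowest scrambled library, 1. RBPJ fell by 0.57 ± 0.12 on the log2 scale (adjusted p = 0.000629 by edgeR). MAML1 (ENSG00000161021, chromosome 5, 179732850 to 179777286, plus strand), the coactivator that binds the RBPJ-Notch complex, had 31.0, 22.6 and 28.8 CPM in siGLUT2 and 26.3, 20.3, 22.0 and 19.2 CPM in scrambled libraries. These ranges overlapped, and the log2 fold change was 0.32 ± 0.20 (interval -0.10 to 0.74, edgeR adjusted p = 0.258). Of the 8 tested genes of the nuclear complex and coactivator list, RBPJ was the 1 called, beside 28.3% of all genes tested. Without siGLUT2 replicate 4, 2 of the list were called. SNW1, a splicing and transcription cofactor that binds RBPJ, was at 127 ± 2.43 CPM in siGLUT2 and 140 ± 2.28 CPM in scrambled libraries (edgeR adjusted p = 0.338).

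The 3' untranslated regions were read for 2 short words. An earlier scan of these same fold changes picked the 7-base words GACCTTA and ACCTTAA as those whose presence in a 3' untranslated region went with lower transcript levels after siGLUT2. In the longest annotated 3' untranslated region of each tested gene, 1914 genes held either word and 9740 held neither, and 20.8% of genes with a word were called lower and 10.7% higher, against 13.6% lower and 15.2% higher of genes without one. Since the words were picked on these data, the difference is a description. Among the Notch genes RBPJ and HEY1 held a word, and JAG1, JAG2, HES1, MAML1 and the 3 receptors held neither. RBPJ held both, and the 30-base windows around them are shown, with the words in capitals, because RBPJ was the 1 gene of the 10 that was both called and held a word. Of the 72 tested pathway genes listed below, 10 held a word, of which 4 were called lower, RBPJ, KDM5A and SOX9 among them, and 1 higher, NEDD4L. The window of SOX9, which had the largest fall of these, is given with those of RBPJ. The part of these words in these results was not tested.
RBPJ, chr4:26433144-26433173, plus strand: tcctgcctcacACCTTAAatctgtttcagt
RBPJ, chr4:26433486-26433515, plus strand: ttcaagttcatGACCTTAttaaaatgaact
SOX9, chr17:72126009-72126038, plus strand: gcccactgacaGACCTTAAtcttaattact
These windows are from GENCODE release 29 transcripts on GRCh38 and are written 5′ to 3′ along the transcript.

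HES1, a repressor of the basic helix-loop-helix class, is the best known direct target of Notch. HES1 (ENSG00000114315, chromosome 3, 194136145 to 194138732, plus strand) was at 98.1, 96.1 and 84.7 CPM in siGLUT2 and at 113, 110, 116 and 124 CPM in scrambled libraries. The groups did not overlap, but the gap between the highest siGLUT2 and the lowest scrambled library was small, and HES1 fell by 0.31 ± 0.11 on the log2 scale (interval -0.54 to -0.09, edgeR adjusted p = 0.0363). The direction held in all 16 alternatives, but the call was lost in 8 of them. Without siGLUT2 replicate 3 or 4 the edgeR adjusted p was 0.0533 or 0.106, without scrambled replicate 1, 2, 3 or 4 it was 0.0683, 0.05 (above the threshold before rounding), 0.0718 or 0.12, and it was 0.0999 with the replicate number as a block and 0.0684 by limma-voom with a weight for the quality of each group.

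The promoter windows of HES1, of RBPJ, of JAG1 and of HES4, a HES1 relative described below that also fell, are shown so that the core of the RBPJ site can be seen in them. The core searched was TGGGAA on either strand, written TTCCCA on the other strand, and it is in capitals. Each window runs from 250 bases before to 50 bases after an annotated start, comes from RefSeq on GRCh38.p14 and is written 5′ to 3′ on the strand of the gene.
HES1, chr3:194135898-194136197, plus strand: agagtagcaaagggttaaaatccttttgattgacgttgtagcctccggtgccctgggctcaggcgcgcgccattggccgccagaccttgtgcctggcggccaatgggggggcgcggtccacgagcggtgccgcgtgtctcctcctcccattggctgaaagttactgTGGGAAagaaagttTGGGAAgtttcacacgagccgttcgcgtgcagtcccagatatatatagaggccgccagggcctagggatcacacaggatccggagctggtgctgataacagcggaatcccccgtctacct
HES4, chr1:1000048-1000347, minus strand: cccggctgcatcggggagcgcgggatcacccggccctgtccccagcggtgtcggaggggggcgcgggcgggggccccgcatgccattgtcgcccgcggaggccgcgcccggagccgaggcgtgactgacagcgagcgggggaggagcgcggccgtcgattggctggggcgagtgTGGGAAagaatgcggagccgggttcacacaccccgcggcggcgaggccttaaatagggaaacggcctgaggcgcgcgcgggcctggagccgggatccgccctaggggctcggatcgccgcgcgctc
RBPJ, chr4:26319496-26319795, plus strand: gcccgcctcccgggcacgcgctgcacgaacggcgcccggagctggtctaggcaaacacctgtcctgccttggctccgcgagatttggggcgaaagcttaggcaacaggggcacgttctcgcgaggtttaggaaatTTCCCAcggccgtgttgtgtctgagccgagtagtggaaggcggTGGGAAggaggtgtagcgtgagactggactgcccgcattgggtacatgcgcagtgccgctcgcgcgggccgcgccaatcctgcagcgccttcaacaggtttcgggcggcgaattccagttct
JAG1, chr20:10673950-10674249, minus strand: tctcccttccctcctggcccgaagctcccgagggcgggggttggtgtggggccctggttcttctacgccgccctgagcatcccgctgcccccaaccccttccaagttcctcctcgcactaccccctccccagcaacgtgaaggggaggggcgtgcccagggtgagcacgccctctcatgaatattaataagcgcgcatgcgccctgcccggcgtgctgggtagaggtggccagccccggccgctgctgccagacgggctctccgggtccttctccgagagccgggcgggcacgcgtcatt
The HES1 window held the core at 2 places on the gene's own strand, beginning 84 and 70 bases before the start. The HES4 window held it at 1 place, beginning 76 bases before the start. RBPJ has 5 windows in the table, and the 1 shown, the only one of them with the core, held it once on each strand. The JAG1 window held none. Over all 35116 windows, 24.0% held the core at least once and 3.80% at least 2 times, so a single match is common. Of 118 windows of the pathway genes, 26 (22.0%) held it. These include windows of LFNG, FURIN and NEDD4L, which were called higher, as well as of genes called lower and not called. Of 21 windows of the HES and HEY family and direct targets, 7 (33.3%) held it, and 4 (19.0%) at least 2 times. The part of these matches in the results was not tested. Windows were found for 8 of the 10 Notch genes, without DLL1 and HEY1. A match is a run of letters and not a measured binding site.

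HEY1 (ENSG00000164683, chromosome 8, 79764010 to 79767863, minus strand), a HES-related repressor and direct target, was counted 28, 79 and 48 times in siGLUT2 and 28, 66, 81 and 32 times in scrambled libraries. At 4.78, 11.4 and 7.51 CPM in siGLUT2 and 3.92, 7.92, 10.2 and 5.64 CPM in scrambled libraries, the spread within each group was larger than the difference between groups (0.18 ± 0.40, interval -0.65 to 1.01, edgeR adjusted p = 0.777). The interval holds both 0 and the log2 fold change of HES1, so a change of HEY1 of that size cannot be told from none here.

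Other HES family members were set beside HES1 after their values had been seen. HES4, which has no counterpart in mouse, was at 28.3, 27.5 and 26.6 CPM in siGLUT2 and at 40.9, 46.5, 53.2 and 40.9 CPM in scrambled libraries, and fell by 0.73 ± 0.17 on the log2 scale (adjusted p = 0.00231 by edgeR, and at most 0.0152 over the 16 alternatives). HES6, which can counteract HES1, was at 5.46, 7.21 and 8.44 CPM in siGLUT2 and at 10.4, 16.3, 11.6 and 13.2 CPM in scrambled libraries, and fell by 0.87 ± 0.31 on the log2 scale (adjusted p = 0.0393 by edgeR). That call was lost in 8 of 16 alternatives, with an edgeR adjusted p of up to 0.144 without scrambled replicate 2. HES7 had 0.341, 1.15 and 0 CPM in siGLUT2 and 0.841, 4.44, 4.30 and 2.12 CPM in scrambled libraries, with an adjusted p of 0.0633 by edgeR and of 0.0417 by DESeq2, 0.0307 without siGLUT2 replicate 3 and 0.0479 without scrambled replicate 1. Of the 12 alternatives that gave a value for HES7, the other 9 left it uncalled. HES2, HES5, HEY2 and HEYL were counted too rarely to be tested. NRARP, a feedback inhibitor and direct target of Notch, was at 5.46, 3.03 and 3.91 CPM in siGLUT2 and at 6.31, 13.4, 9.61 and 2.65 CPM in scrambled libraries (edgeR adjusted p = 0.135). Scrambled library 4 was the lowest of all 7, and without it the adjusted p was 0.0471 by edgeR. The other 15 of the 16 alternatives left NRARP uncalled.

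**Figure D3:**
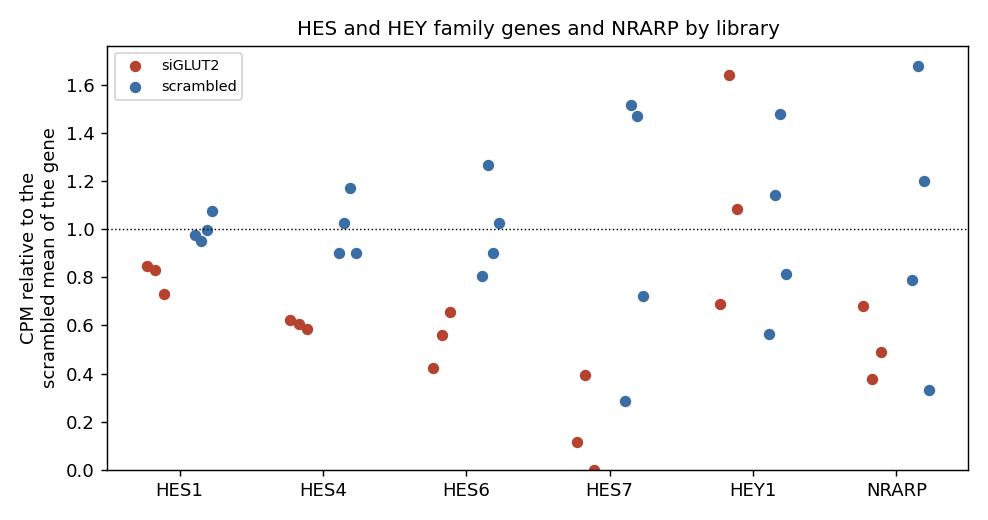
CPM of each library divided by the mean of the gene's 4 scrambled libraries (vertical axis, linear, starting at 0) for the tested HES and HEY genes and NRARP, with siGLUT2 points left of scrambled points. The siGLUT2 points of HES1, HES4 and HES6 lie below all scrambled points of the same gene, and those of HES7, HEY1 and NRARP overlap them. Over all genes tested the groups were apart, in either direction, for 35.1%.

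The wider pathway was listed by role in 9 lists of 92 genes, the 10 genes included, of which 72 were tested. Outside the 10 genes, 63 were tested and 25 were called, 13 higher and 12 lower, or 39.7%, beside 28.3% of all genes. The median log2 fold change of these 63 was 0.09.

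Among the genes that shape the receptor before it meets a ligand, 2 of 6 tested rose and 1 fell. Of all genes tested, 13.9% were called higher and 14.4% lower. LFNG and RFNG encode Fringe enzymes, which add sugars to Notch and alter its response to Jagged and Delta-like ligands, and they went in opposite directions. LFNG was at 82.0, 111 and 95.8 CPM in siGLUT2 and at 34.2, 34.2, 37.9 and 31.2 CPM in scrambled libraries, and rose by 1.49 ± 0.14 on the log2 scale with no overlap between the groups (adjusted p = 7.79e-08 by edgeR). RFNG was at 8.70, 11.7 and 18.1 CPM in siGLUT2 and at 30.6, 21.9, 26.7 and 27.7 CPM in scrambled libraries, and fell by 1.05 ± 0.25 on the log2 scale (adjusted p = 0.00286 by edgeR). RFNG overlaps GPS1 on the other strand, so with an unknown strand setting some of its reads may belong to that gene. FURIN, the protease that cleaves Notch on its way to the surface, rose to 72.0 ± 6.04 CPM in siGLUT2, against 41.6 ± 5.36 CPM in scrambled libraries (adjusted p = 0.000246 by edgeR). MFNG, the remaining Fringe gene, was counted too rarely to be tested.

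Of 7 tested sheddase and gamma-secretase genes 1 rose, beside 13.9% called higher and 14.4% lower of all genes tested. It was APH1A, a gamma-secretase subunit, at 247 ± 12.4 CPM in siGLUT2 and 199 ± 25.7 CPM in scrambled libraries (log2 fold change 0.31 ± 0.10, edgeR adjusted p = 0.0223). That call was lost in 5 of 16 alternatives, without siGLUT2 replicate 4 (0.0614), without scrambled replicate 1, 3 or 4 (0.1, 0.0571 or 0.0586) and with the replicate block (0.126, all by edgeR), and over the alternatives 0 to 3 of the 7 were called. Among 14 tested ubiquitin ligases and endocytic regulators 3 rose and 3 fell, beside the same 13.9% and 14.4% of all genes. NEDD4, a ubiquitin ligase that can direct Notch to degradation, was at 49.5, 31.4 and 44.9 CPM in siGLUT2 and at 101, 98.3, 88.3 and 105 CPM in scrambled libraries, and fell by 1.23 ± 0.15 on the log2 scale. Its relative NEDD4L rose by 0.65 ± 0.12 and FBXW7, which marks the Notch intracellular domain for destruction, by 0.68 ± 0.13 on the log2 scale (adjusted p = 0.000217 and 0.000451 by edgeR). MIB1, which ubiquitinates the ligands so that they can activate Notch on the next cell, was at 82.6 ± 16.7 CPM in siGLUT2 and 61.5 ± 5.99 CPM in scrambled libraries (edgeR adjusted p = 0.0297), a call lost in 6 of 16 alternatives, with an adjusted p of up to 0.175 by edgeR without siGLUT2 replicate 4. With the replicate block, or without scrambled replicate 1 or 2, 3 of these 14 genes were called and not 6.

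Of 16 tested corepressors 3 rose and 4 fell, beside 13.9% higher and 14.4% lower of all genes tested. NCOR1, which brings histone deacetylases to repressed genes, rose to 146 ± 9.98 CPM in siGLUT2, against 109 ± 9.16 CPM in scrambled libraries (log2 fold change 0.42 ± 0.11, edgeR adjusted p = 0.00517, and at most 0.0452 over the 16 alternatives). TLE1 and TLE4, Groucho-type corepressors that HES proteins recruit, moved in opposite directions, TLE1 by -0.59 ± 0.10 and TLE4 by 0.52 ± 0.12.

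Among 14 tested genes of the HES and HEY family and direct target list 4 rose and 5 fell, beside 13.9% higher and 14.4% lower of all genes tested, and over the 16 alternatives 6 to 10 of the 14 were called. The 3 with the smallest adjusted p outside the 10 genes are also controlled by many other pathways. CCND1, the G1 cyclin D1, was at 110, 100.4 and 114 CPM in siGLUT2 and at 21.0, 43.9, 33.1 and 27.5 CPM in scrambled libraries, and rose by 1.78 ± 0.18 on the log2 scale (adjusted p = 1.25e-07 by edgeR). ID1, an inhibitor of helix-loop-helix factors and a target of BMP signals, was at 78.6, 72.5 and 53.6 CPM in siGLUT2 and at 164, 142, 179 and 153 CPM in scrambled libraries (log2 fold change -1.23 ± 0.13). SOX9, a transcription factor of injured and regenerating tubules, was at 4.26, 9.80 and 6.25 CPM in siGLUT2 and at 25.8, 21.2, 25.3 and 27.9 CPM in scrambled libraries (log2 fold change -1.87 ± 0.28). In all 3 genes, which were picked by their small adjusted p, the groups did not overlap. The same held for 35.1% of all genes tested. MYC, ID2 and the cell-cycle inhibitor CDKN1A rose as well, by 0.61 ± 0.17, 0.89 ± 0.19 and 0.97 ± 0.28 on the log2 scale, of which MYC lost its call in 1 and CDKN1A in 3 of the 16 alternatives. APH1A, NEDD4L, FBXW7, MIB1, KDM5A, NCOR1, CCND1 and ID2, and among the genes not called DLK2 and SNW1, each overlap at least 1 gene on the opposite strand, and reads of the pair cannot be told apart without the strand.

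**Figure D4:**
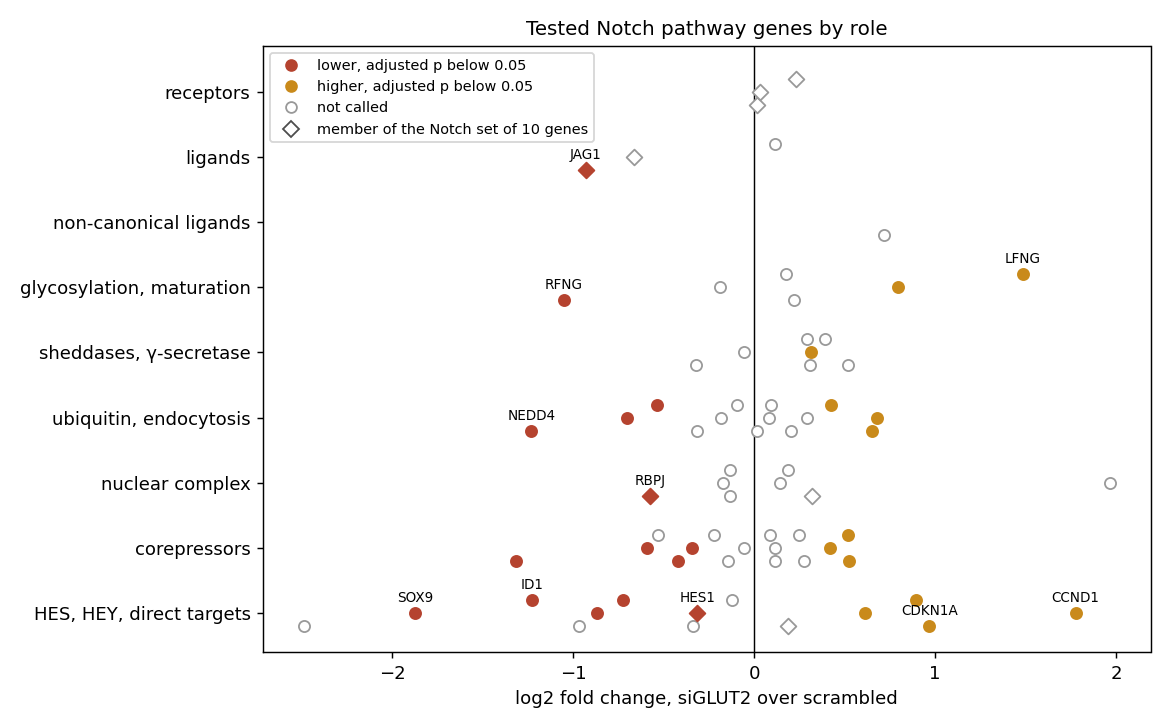
Log2 fold change of siGLUT2 over scrambled (horizontal axis) for the 72 tested Notch pathway genes by role, with the 9 tested genes of the Notch set as diamonds, red for called lower, gold for called higher and open for not called. Calls lie on both sides of 0 in the lists of maturation, ubiquitin and endocytosis, corepressor and target genes, and the 3 receptors are open and near 0.

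The genes whose log2 CPM ran most like that of HES1 over the 7 libraries, among 10362 with a mean of at least 5 CPM, were SYT13 (Pearson r = 0.995), POLR2C (0.993) and MORC4 (0.991). For JAG1 they were SLC25A10 (0.996), GTF3C5 (0.995) and TAF9B (0.994). All 6 were lower in siGLUT2 libraries, TAF9B at a mean of 1.58 CPM in siGLUT2 and 25.9 CPM in scrambled libraries and SYT13 at 15.7 CPM in siGLUT2 and 42.0 CPM in scrambled libraries. The 7 libraries fall into 2 groups, and all genes share the depth and scaling of each library. A gene that differs between the groups in the same direction therefore tends to give a high r. The 6 genes were also picked as the highest among 10362, so the values describe these libraries alone.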

How the data were processed

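Raw counts per Ensembl gene for 7 libraries were deposited by the authors, in whole numbers and 1 column per library. Per the labels' protocols, libraries were made from 125 ng of total RNA by a commercial digital mRNA-seq service and sequenced single-end with 100 cycles. The submitters' processing notes name STAR, HTSeq, edgeR and hg38, without version or role. Which annotation release was counted, whether strand was used and whether molecular identifiers were collapsed is not given in the sources used here. Counts may therefore hold copied molecules. The intervals include the spread between libraries that the fit estimated, while the floors cover counting error only. Of 33694 IDs, 32807 matched the name table and 33132 GENCODE release 29 on GRCh38.

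Sample titles gave the groups. The comparison used edgeR 4.0.16 in R 4.3.3 on all 7 libraries: filterByExpr (minimum count 10, minimum total 15), TMM, robust dispersion and quasi-likelihood fits, no covariate, Benjamini-Hochberg adjustment over all genes tested. P-values set the difference between the groups against the spread between these cultures. Replicates of a group differed by more than sampling noise (chi-square per degree of freedom 9.90 to 16.9 between siGLUT2 and 4.73 to 7.85 between scrambled libraries), so none is a duplicate. On counts simulated for siGLUT2 against scrambled over 12404 genes, edgeR called 4 of the 50 genes made to differ 1.25-fold, 15 of 50 at 1.5-fold, 30 of 50 at 2-fold and 45 of 50 at 4-fold. False calls were 4 of 98. The simulation gave 98 calls, against 3509 in the data, and the adjustment is stricter when fewer genes differ. The shares recovered therefore do not carry over to these data.

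The Notch genes and all lists were chosen with earlier results of these data known. Besides the 10 genes and SLC2A2, the rule names up to 3 genes per list past the threshold with the smallest adjusted p, or the tested gene with the highest CPM where none passes, and 3 genes most like HES1 and JAG1 by log2 CPM (prior count 2). HES4, HES6, HES7, NRARP, KDM5A, NCOR1, MIB1, MYC, ID2 and CDKN1A were added after their values were seen. Promoter motifs and 3' untranslated words (regions of at least 50 bases) were counted with Python 3.11.15. Alternatives were DESeq2 1.42.0, limma-voom (limma 3.58.1), 3 other scalings, 2 other filters, a replicate block and each library left out. Some genes of the lists are counted in them but not reported singly here.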

Additional observations from a re-analysis of the deposited data

How the results depend on the processing

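The falls of JAG1 and RBPJ kept their direction and their call in all 16 alternatives, with log2 fold changes of -1.06 to -0.78 and -0.73 to -0.46. All genes called numbered 2649 to 3778 and pathway genes called 21 to 29, each within 1.5 times the reported count, and no scaling moved the median of all genes by 0.1. Between 2 and 4 of the 10 Notch genes were called, JAG2 being the fourth under the stricter filter. Uncalled genes changed sign. NOTCH3 was at -0.0146 by limma-voom, -0.015 with quality weights (an alternative chosen after seeing the data), -0.0487 with the replicate block and -0.163 to 0.197 with a library left out. HEY1 was at -0.0481 with the replicate block and -0.179 to 0.44 with a library left out, NOTCH1 at -0.0523 to 0.102 and DLL3 at -0.13 to 0.354. With the block the SLC2A2 knockdown check had an adjusted p of 0.0577 by edgeR, and the filter removed SLC2A2 in 4 alternatives, which give no value. Same-numbered libraries did not deviate together (correlations 0.00858, 0.0189 and -0.00439). With so few libraries these values cannot show whether the numbers mark a shared batch, and the labels do not say. The block changed the calls of HES1, HES6, APH1A and MIB1 among the genes named. Low counts limit HES7, with 0 to 8 per siGLUT2 library.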
